A study of Mus musculus with 2 samples.

Results

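Mitotic large peritoneal macrophages were selected by transcript counts, and 636 of the 30733 peritoneal cells (2.07%) met the selection, 351 of 16000 Cd36-/- and 285 of 14733 fl/fl cells. A cell was selected if C1qa, C1qb and C1qc together gave at least 20 UMIs (unique molecular identifiers, each counting 1 captured transcript) per 10000. It also had to hold at least 2 UMIs of Gata6, Garnl3, Tgfb2 and Ltbp1, called LPM genes here, and at least 5 UMIs of Mki67, Top2a, Birc5, Ube2c, Cenpf and Nusap1, called mitosis genes here. Cells with 10 or more Retnla UMIs, or with more than 2 UMIs of the B cell gene Cd79a and the T cell gene Cd3e, were left out. These genes chose the cells, so their values describe the selection. The name mitotic follows the mitosis genes and does not place each cell in mitosis.

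Both libraries came from mice 10 to 14 weeks old whose peritoneal cavity had received 1 mg of zymosan, a yeast cell wall preparation that causes sterile peritonitis, and all cells of the cavity were collected on day 3. The Cd36-/- mice carried floxed Cd36 and LysM-Cre, which is driven from the Lyz2 locus and is active in macrophages as well as other myeloid cells. The fl/fl mice carried floxed Cd36 without Cre in their strain label, so what comes from Cd36 loss and what from a Cre insertion in Lyz2 cannot be told apart. Material from 4 replicates was pooled into each library. With 1 library per genotype the spread between mice could not be measured and no test was run, and every interval below is a 95% interval of counting error only.

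Large peritoneal macrophages (LPM) are the resident macrophages of the cavity. They depend on the transcription factor Gata6 and maintain themselves by division within the cavity, also after inflammation. In a dividing cell, genome copying in S phase draws on replication enzymes and newly made histones, whereas entry into mitosis draws on B-type cyclins with their kinase Cdk1, the spindle motors and kinetochores that move chromosomes, the checkpoint that watches them, and the anaphase promoting complex that ends mitosis by destroying cyclins and securin. Many of the late genes are held silent outside the cycle and switched on together through CCAAT boxes and a cell cycle element in their promoters.

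Genes that the selection did not use bear on the label. Adgre1, the F4/80 macrophage antigen, gave 5.15 and 5.88 UMIs per cell, the resident receptor gene Timd4 4.18 and 4.68, and the replication gene Pclaf 7.15 and 6.75. These counts come from deep cells, and Adgre1 is a gene of macrophages in general. Gata6 was a term of the selection, so its share only describes it. A Gata6 UMI was seen in 71.2% of the selected Cd36-/- cells and 74.7% of the selected fl/fl cells, against 0.815% and 0.871% of B cells, which do not express it. Mitotic LPM were deep, with a median of 14022 and 16329 UMIs per cell against 7549.5 and 7915 in LPM with 0 mitosis UMIs. With every cell thinned to 3000 UMIs, a Gata6 UMI was seen in 22% and 27% of mitotic LPM, against 29.8% and 29.6% of LPM with 0 mitosis UMIs and 0.484% and 0.568% of B cells. Because the selection used raw UMIs, deep cells passed it more easily.

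The cells that only just passed the LPM threshold resembled another class. Macrophages with at least 5 mitosis UMIs but only 0 or 1 UMIs of the LPM genes, called mitotic Gata6-low macrophages here, numbered 400 (Cd36-/-) and 294 (fl/fl). Among mitotic LPM, 137 and 80 cells held 2 or 3 LPM UMIs. Cxcl13, a B cell attracting chemokine of resident macrophages that the selection did not use, stood at 62.8 and 48.3 CPM in those cells, where CPM stands for the UMIs of a gene per 1000000 UMIs of its class. It stood at 467 and 505 CPM in mitotic LPM with 4 or more LPM UMIs, and at 27.1 and 14.9 CPM in mitotic Gata6-low macrophages. Vsig4, a complement receptor of resident macrophages, gave 14.3 and 16.1 CPM with 2 or 3 LPM UMIs, 158 and 124 CPM with 4 or more, and 4.31 and 3.38 CPM in mitotic Gata6-low macrophages. In both libraries the cells with 2 or 3 LPM UMIs thus stood nearer to the Gata6-low class in these genes. Both genes were concentrated in few cells. Of all mitotic LPM, 25.1% and 24.6% held a Vsig4 UMI, and the top 10 cells held 41.3% and 38.6% of its UMIs. For Cxcl13 the top 10 cells held 40.0% and 39.0%. Folr2, a folate receptor of Gata6-low macrophages, ran the other way, with 82.6 and 81.3 CPM at 2 or 3 LPM UMIs and 19.9 and 24.4 CPM at 4 or more. Timd4 stood at 203 and 123 CPM with 2 or 3 LPM UMIs, 365 and 364 CPM with 4 or more, and 183 and 147 CPM in mitotic Gata6-low macrophages. A Gata6 UMI was also seen in 17.25% and 20.1% of mitotic Gata6-low macrophages. A list of 10 LPM markers, which includes the LPM genes of the selection, summed to 3755 and 4187 CPM in mitotic LPM. It summed to 6021 and 6077 CPM in LPM with 0 mitosis UMIs and to 1476 and 1224 CPM in mitotic Gata6-low macrophages. A list of 6 Gata6-low macrophage markers summed to 181 and 160 CPM, 164 and 144 CPM, and 347 and 439 CPM in these 3 classes.

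**Figure D1:**
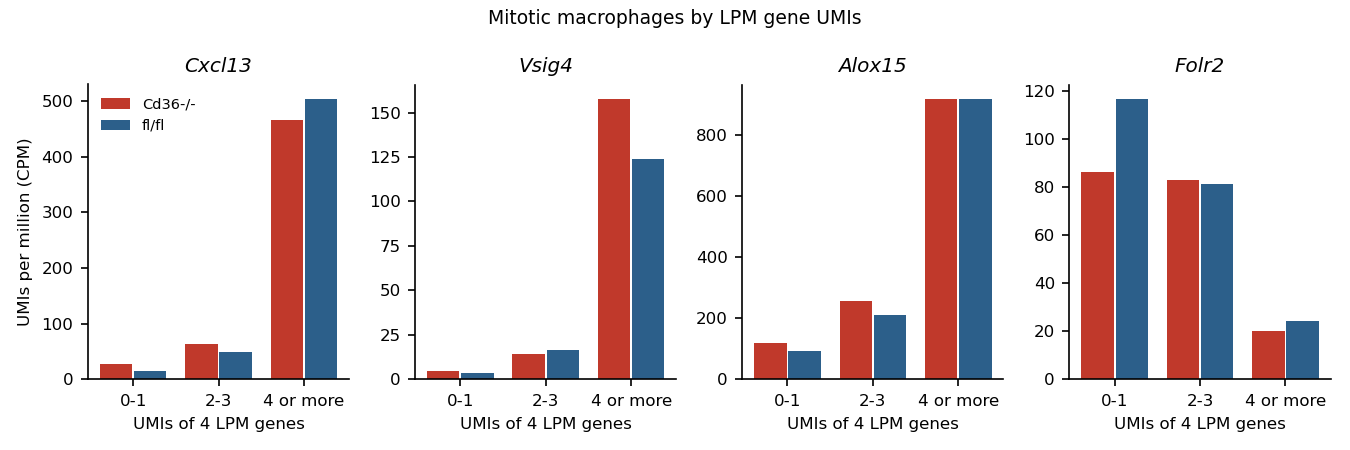
Level of 4 macrophage genes (CPM, linear axes from 0) in macrophages with at least 5 mitosis UMIs, split by their UMIs of the 4 LPM genes (0-1 are mitotic Gata6-low macrophages, 2-3 and 4 or more are mitotic LPM), with Cd36-/- in red and fl/fl in blue. Cxcl13, Vsig4 and the lipoxygenase gene Alox15 were highest in the right-hand bars, and Folr2 was lowest there.

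Mitotic LPM with 4 or more LPM UMIs made up 61.0% (55.6 to 66.1) of the Cd36-/- and 71.9% (66.3 to 77.1) of the fl/fl cells, a difference of -11.0 percentage points (-18.4 to -3.36). The Cd36-/- class thus held a larger share of cells near the LPM threshold, and values for cells with 4 or more LPM UMIs are given for some genes and lists. With this limit, 18 of 71 gene ratios between the genotypes left the counting interval found for all mitotic LPM. Exactly 2 LPM UMIs were held by 81 and 57 cells, and 153 and 132 further dividing macrophages stood just outside with 1 UMI. For the mitosis genes, the median was 22 and 24 UMIs, with 29 and 20 cells at the threshold of 5 and 32 and 23 LPM just outside with 4.

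Markers of cell types other than macrophages were low, although the selection had capped Cd79a of the B cell list and Cd3e of the T cell list. The summed level of 6 B cell markers was 321 CPM in Cd36-/- and 376 CPM in fl/fl mitotic LPM, below the 402 and 505 CPM of LPM with 0 mitosis UMIs. Of 5 T cell markers the sum was 17.8 and 12.3 CPM, of 4 NK cell markers 22.4 and 9.14 CPM, and of 5 neutrophil markers 34.4 and 36.8 CPM with Ly6g at 0 in both libraries. Of 5 dendritic cell markers the sum was 5.60 and 8.03 CPM with Xcr1 and Clec9a at 0 in both, and mast cell, eosinophil, mesothelial and red cell lists summed to under 10 CPM each. Scrublet marked 43 Cd36-/- cells (12.3%) and 16 fl/fl cells (5.61%) as doublets, against 6.83% and 5.25% of LPM with 0 mitosis UMIs. The doublets were kept, because the selection has no doublet term. Of 383 barcode sequences found in both libraries, 0 were mitotic LPM in both.

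The share of dividing cells among LPM was somewhat lower in Cd36-/- than in fl/fl under every setting used, by a gap that depended on the setting. Mitotic LPM made up 7.54% (6.80 to 8.34) of 4655 Cd36-/- LPM and 8.46% (7.54 to 9.45) of 3369 fl/fl LPM, which differ by -0.919 percentage points (-2.16 to 0.296). After thinning to 3000 UMIs, at least 2 mitosis UMIs were seen in 7.24% and 8.16% of LPM, a difference of -0.921 points (-2.18 to 0.313). Among Gata6-low macrophages, the dividing share was 8.57% and 8.43%. The difference in LPM was -1.26 points (-2.53 to -0.0179) with doublets removed and -1.62 points (-3.0 to -0.265) with at least 4 LPM UMIs required, so counting error covers 0 under some settings only.

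Against LPM with 0 mitosis UMIs, the genes of cell division stood out as a block, which describes the selection, since the mitosis genes chose these cells. Of 5165 genes with at least 20 CPM, 378 (7.32%) were at least 2-fold higher in mitotic LPM in both libraries and 23 (0.445%) were at least 2-fold lower in both, with a median log2 ratio over all genes of 0.06 and 0.09. By any amount, 49.9% of these genes were higher in both libraries and 33.9% lower in both, which is the background of the list counts below. A 2-fold limit here describes size only. Of the 378, 340 were at least 2-fold higher in both libraries also in mitotic Gata6-low macrophages over Gata6-low macrophages with 0 mitosis UMIs. In that class 362 of the 5165 genes passed this limit. Both classes were chosen by the same 6 mitosis genes.

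The genes that start mitosis stood at a few CPM or less in LPM with 0 mitosis UMIs. Ccnb2, a B-type cyclin that activates Cdk1, stood at 160 CPM in Cd36-/- and 213 CPM in fl/fl mitotic LPM, against 1.85 and 2.70 CPM in LPM with 0 mitosis UMIs. Ccnb1, its partner cyclin, stood at 78.6 and 95.6 CPM against 1.11 and 0.966 CPM. Cdk1, the mitotic kinase itself, stood at 141 and 134 CPM against 3.52 and 3.38 CPM. All 11 compared genes of mitotic cyclins, kinases and phosphatases were at least 2-fold higher in both libraries, with a median log2 ratio of 6.14 in Cd36-/- and 5.70 in fl/fl. Plk1, the kinase that matures centrosomes and spindle poles, was among them, at 47.3 and 55.7 CPM against 0.519 and 0.386 CPM.

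The spindle genes gave the highest ratios. Of 17 spindle and motor genes compared, 16 were at least 2-fold higher, with medians of 6.32 and 7.18. Hmmr, which binds hyaluronan and spindle microtubules, stood at 61.8 and 81.4 CPM against 0.185 and 0.241 CPM. Kif11, the kinesin that pushes the spindle poles apart, stood at 68.2 and 59.3 CPM against 0.482 and 0.338 CPM. Stmn1, stathmin, which disassembles microtubules, was far more abundant, with 13.4 and 12.9 UMIs per mitotic LPM against 0.184 and 0.132 per LPM with 0 mitosis UMIs. Among the tubulins, 6 of 8 were at least 2-fold higher, and Tubb5 stood at 1174 and 1167 CPM against 204 and 202 CPM.

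Genes that attach and watch chromosomes followed. In the spindle assembly checkpoint and kinetochore list, 18 of 19 compared genes were at least 2-fold higher, with medians of 5.29 and 5.81. Bub1, a checkpoint kinase at the kinetochore, stood at 24.3 and 27.6 CPM against 0.260 and 0.386 CPM. Cenpe, a kinetochore motor, stood at 98.7 and 104 CPM against 1.89 and 1.30 CPM. All 4 genes of the chromosomal passenger complex were at least 2-fold higher, and its kinase Aurkb stood at 78.6 and 81.8 CPM against 3.38 and 2.95 CPM. All 19 condensin, cohesin and chromatin condensation genes passed 2-fold too, with lower medians of 2.79 and 2.69. Among them Smc4, a condensin core subunit, stood at 158 and 194 CPM against 26 and 30 CPM.

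The exit from mitosis was less uniform. Of 11 genes of the anaphase promoting complex and securin, 7 were at least 2-fold higher, with medians of 1.47 and 1.29. Its activator Cdc20 stood at 72.4 and 94.1 CPM against 1.26 and 1.26 CPM, and its target Pttg1, securin, at 150 and 181 CPM against 7.34 and 6.28 CPM. The core subunit Anapc13 stood at 270 and 292 CPM against 266 and 263 CPM, so the regulators differed by far more than this subunit. Of 13 cytokinesis genes, 12 were at least 2-fold higher, among them Prc1, which bundles the central spindle, at 146 and 145 CPM against 1.22 and 1.45 CPM. Lmnb1, the B-type lamin of the nuclear envelope, stood at 104 and 104 CPM against 7.01 and 7.68 CPM, and 4 of 6 nuclear envelope genes passed 2-fold.

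**Figure D2:**
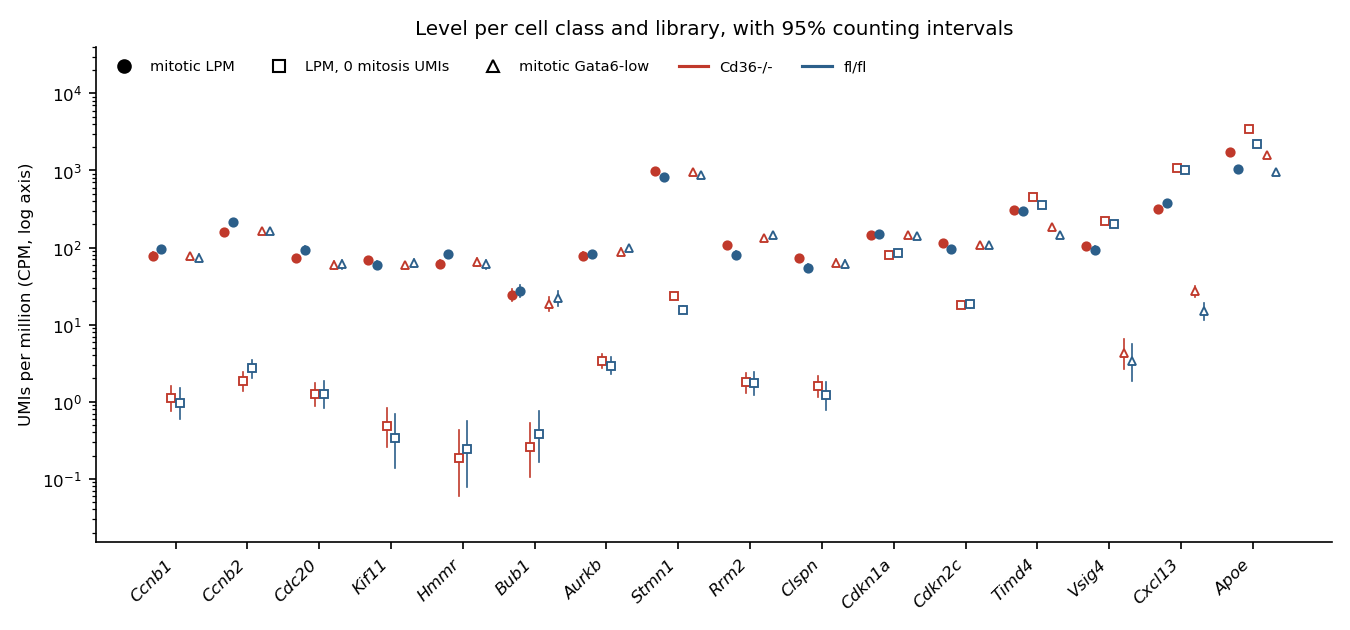
Level (CPM, log axis) of 16 genes in mitotic LPM (filled circles), LPM with 0 mitosis UMIs (squares) and mitotic Gata6-low macrophages (triangles), Cd36-/- in red and fl/fl in blue, with 95% counting intervals. The cell division genes from Ccnb1 to Clspn stood far above the squares in both dividing classes, while Cxcl13 and Vsig4 set mitotic LPM apart from mitotic Gata6-low macrophages.

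Replication genes were higher as well, although no replication gene was part of the selection. Of 34 compared, 33 were at least 2-fold higher in both libraries, with medians of 2.77 and 2.64. Pclaf, a PCNA-binding factor, stood at 521 and 429 CPM against 5.60 and 3.43 CPM. Rrm2, the regulated subunit of the enzyme that makes deoxynucleotides, stood at 108 and 80.5 CPM against 1.78 and 1.74 CPM, and Clspn, which links stalled forks to the checkpoint, at 73.0 and 54.6 CPM against 1.59 and 1.21 CPM. Hist1h2ap, a replication-dependent histone H2A gene, reached 3301 CPM in Cd36-/- and 1949 CPM in fl/fl mitotic LPM, against 47.9 and 51.7 CPM. Its 3′ end shares 93.4% of its 31-base words with other histone genes, above all Hist1h2ao, so its reads cannot be given to 1 gene. Of 6 clustered histone genes compared, 4 passed 2-fold, and Hist1h2bc was lower, at 26.1 and 31.7 CPM against 47.4 and 57.5 CPM.

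Genes of the G1 step and of the brakes gave mixed results. Cdk4, the G1 kinase, stood at 166 and 165 CPM against 82.9 and 81.4 CPM, and 3 of 7 G1 genes were at least 2-fold higher. Of 14 genes that restrain the cycle, 2 were at least 2-fold higher and 6 were lower in both libraries, with medians of -0.13 and 0.06. The 2 were Cdkn2c, the p18 inhibitor of G1 kinases, at 114 and 96.5 CPM against 17.9 and 18.3 CPM, and Cdkn2d, the p19 inhibitor, at 135 and 113 CPM against 37.3 and 29.8 CPM. Cdkn1a, the p21 inhibitor, was also higher, at 146 and 149 CPM against 80.9 and 85.7 CPM.

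**Figure D3:**
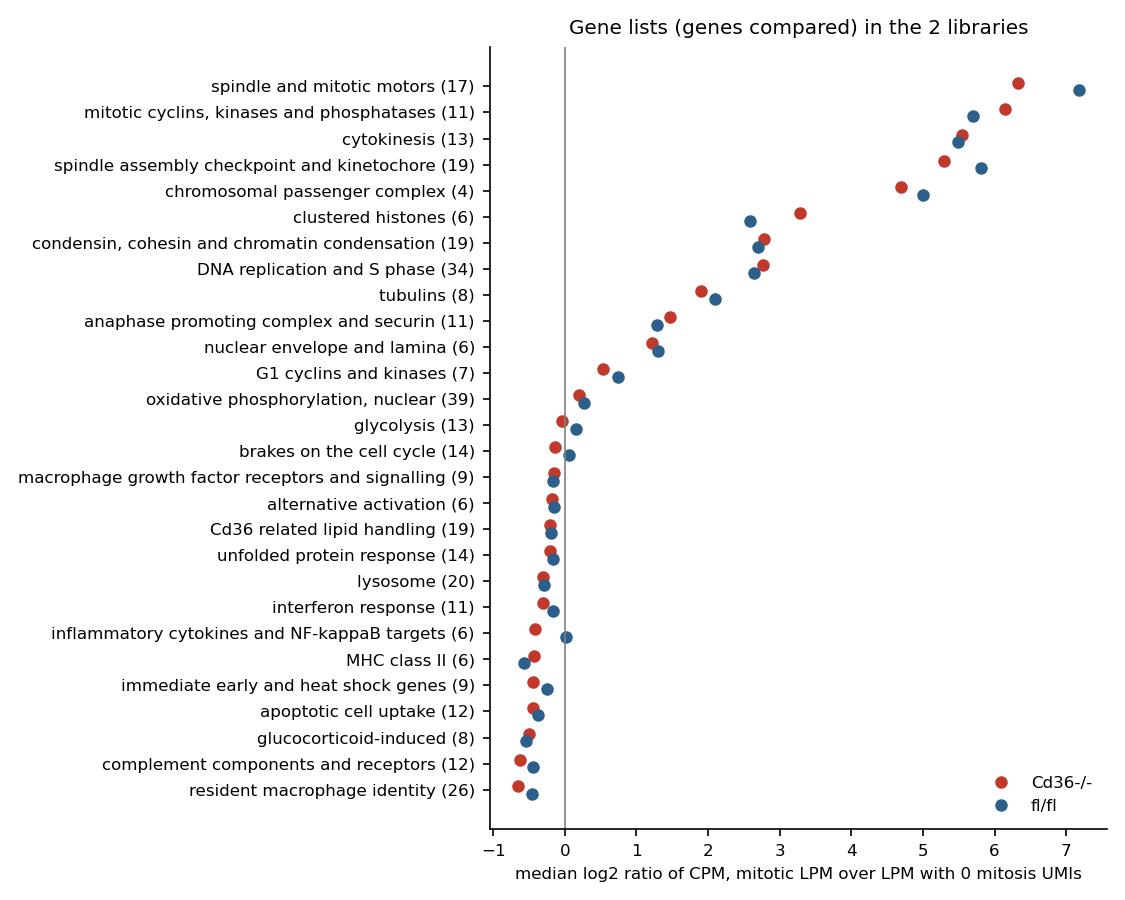
Median log2 ratio of CPM between mitotic LPM and LPM with 0 mitosis UMIs for 28 gene lists, with the number of genes compared in brackets, Cd36-/- in red and fl/fl in blue. Cell division lists lay at 1.22 or more in both libraries, except the G1 genes and the brakes. Resident macrophage identity (-0.66) lay lowest in Cd36-/- and MHC class II (-0.57) in fl/fl.

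CCAAT was more frequent in promoters of cell division genes than in all promoters, and the cell cycle element was more frequent in those of mitosis genes but not of replication genes. In the 150 bases before the start of transcription, CCAAT on either strand was found in 61.3% of 80 RefSeq promoters of 6 mitosis gene lists (71 of 82 genes matched), in 46.8% of 357 promoters of the 378 higher genes, in 27.8% of 5298 promoters of all genes compared and in 24.5% of all 32851 promoters. At least 2 copies were found in 32.5% of the mitosis promoters, 9.76% of those of genes compared and 6.02% of all. The word TTTGAA or TTCGAA, on either strand, stands for the cell cycle element, and was found in 23.8% of the mitosis promoters, 7.08% of those of genes compared and 9.70% of all. It was found in 7.5% of the 40 promoters of replication genes, which held CCAAT in 52.5%, and in 17.6% of the 17 promoters of the 2-fold lower genes. The 19 promoters of the resident identity genes held it in 31.6%, so it did not set cell cycle genes apart from these. The 110 bases before the start are shown for 4 late genes with multiple or paired elements and for Cxcl13, a resident gene lower in mitotic LPM, on build GRCm38.p6, with both elements in capitals.
Ube2c, chr2:164769819-164769928, plus strand: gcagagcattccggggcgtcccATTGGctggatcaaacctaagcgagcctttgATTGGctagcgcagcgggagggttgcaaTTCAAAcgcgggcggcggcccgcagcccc
Hmmr, chr11:40733438-40733547, minus strand: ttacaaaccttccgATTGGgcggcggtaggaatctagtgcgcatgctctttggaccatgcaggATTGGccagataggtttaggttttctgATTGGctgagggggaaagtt
Cdc20, chr4:118437344-118437453, minus strand: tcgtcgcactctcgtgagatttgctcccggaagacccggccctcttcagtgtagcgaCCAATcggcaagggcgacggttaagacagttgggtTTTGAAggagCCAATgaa
Kif11, chr19:37376272-37376381, plus strand: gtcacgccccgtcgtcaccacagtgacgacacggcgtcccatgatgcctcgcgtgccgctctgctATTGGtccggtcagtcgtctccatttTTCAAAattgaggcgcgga
Cxcl13, chr5:95956829-95956938, plus strand: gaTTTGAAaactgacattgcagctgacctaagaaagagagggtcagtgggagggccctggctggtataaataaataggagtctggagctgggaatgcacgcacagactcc

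ATTGG is CCAAT read on the other strand, and TTCAAA is TTTGAA read on the other strand. Ube2c had CCAAT 88 and 57 bases before the start and TTTGAA 29 bases before it, and Cdc20 had CCAAT at 53 and 8 bases with TTTGAA at 18. Kif11 had 1 of each, 45 and 19 bases before the start. Hmmr had 3 CCAAT at 96, 47 and 20 bases and no TTTGAA or TTCGAA in these bases. Cxcl13 held no CCAAT here, and its TTTGAA lay 108 bases before the start. These matches describe the letters and were not measured as binding sites.

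Mitotic LPM differed in their balance of S phase and late transcripts. Each cell was thinned to 5000 UMIs, which kept 342 Cd36-/- and 274 fl/fl cells, and UMIs of 13 S phase genes were set against those of 5 late genes (Ccnb1, Ccnb2, Cdc20, Plk1 and Aurka). The lists differ in size and level, so the side of a cell serves to compare cells and libraries and is no share of the cycle. Cells with more S than late UMIs held a median of 0 late UMIs in both libraries. The class called mitotic LPM thus also held cells with few or no late transcripts. In the Cd36-/- library 62.6% (57.2 to 67.7) of cells held more S than late UMIs and 29.5% (24.7 to 34.7) more late than S. In the fl/fl library these shares were 51.8% (45.7 to 57.9) and 42.0% (36.1 to 48.1). More Cd36-/- cells were thus on the S side, by 10.7 points (2.66 to 18.7), and fewer on the late side, by -12.4 points (-20.2 to -4.60). Among mitotic Gata6-low macrophages the S share was 67.6% and 62.8%, a difference of 4.83 points (-2.80 to 12.5).

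This difference moved with depth. With cells thinned to 3000 UMIs it was 6.47 points (-1.54 to 14.4). At 5000 UMIs, 19.9% and 18.2% of cells lay within 1 UMI of the line between the sides. With at least 4 LPM UMIs required it was 13.5 points (3.55 to 23.1), and without doublets 12.1 points (3.61 to 20.4). S and late UMIs of a cell ran against each other, with Pearson r = -0.41 and Spearman rho = -0.46 over the 342 Cd36-/- cells and r = -0.48 and rho = -0.58 over the 274 fl/fl cells, as a description of cells that share 1 library each.

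**Figure D4:**
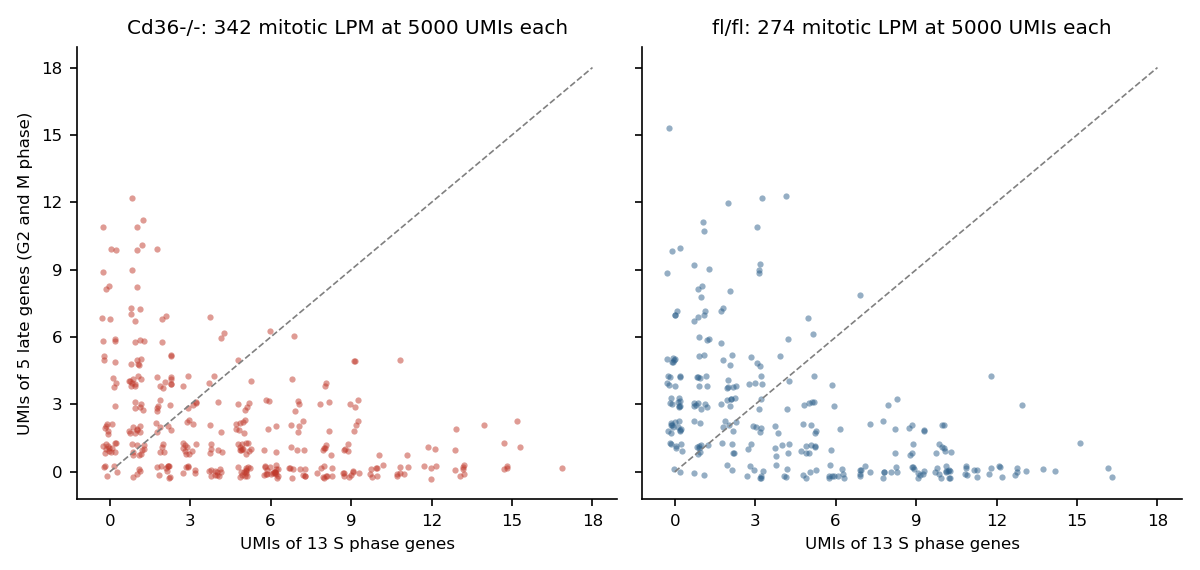
UMIs of 13 S phase genes (x axis) against UMIs of 5 late genes (y axis) in each mitotic LPM after thinning to 5000 UMIs, with Cd36-/- on the left and fl/fl on the right. Points are moved slightly at random to separate equal values, and the dashed line marks equal UMIs, with 62.6% of Cd36-/- and 51.8% of fl/fl cells below it.

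Genes outside the 18 that made the split followed it. Of 2648 genes with at least 50 CPM, 38 (1.44%) were at least 2-fold higher in late-rich than in S-rich cells in both libraries and 37 (1.40%) at least 2-fold higher in S-rich cells. Pttg1, securin, stood at 74.9 CPM in S-rich and 326 CPM in late-rich Cd36-/- cells, and at 66.0 and 328 CPM in fl/fl cells. Cenpa, the histone H3 variant of centromeres, stood at 155 and 586 CPM in Cd36-/- and at 129 and 550 CPM in fl/fl. Of the S side, Slbp, which binds the stem-loop of histone messages, stood at 143 CPM in S-rich and 35.1 CPM in late-rich Cd36-/- cells, and at 133 and 29.6 CPM in fl/fl. Tk1, thymidine kinase, stood at 187 and 55.0 CPM in Cd36-/- and at 174 and 60.3 CPM in fl/fl.

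Ifi27l2a, an interferon-induced gene with no textbook part in the cycle, also stood higher in late-rich cells, at 418 and 992 CPM in S-rich and late-rich Cd36-/- cells and at 407 and 1061 CPM in fl/fl. Cdkn1a stood higher in S-rich cells, at 169 against 102 CPM in Cd36-/- and at 195 against 95 CPM in fl/fl. Gata6 barely differed by stage, with 97.7 CPM in S-rich and 107 CPM in late-rich Cd36-/- cells and 89.9 and 100 CPM in fl/fl. Of the genes used for selection, Cenpf was 113 against 458 CPM and 110 against 388 CPM. Ube2c, Birc5, Mki67 and Nusap1 were also higher in late-rich cells of both libraries, and Top2a was not, at 443 against 360 CPM and 416 against 417 CPM.

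The 23 genes lower in mitotic LPM than in LPM with 0 mitosis UMIs included resident macrophage genes, and 10 of the 23 stayed at least 2-fold lower in both libraries in cells with 4 or more LPM UMIs. Mitotic Gata6-low macrophages were also set against their own class with 0 mitosis UMIs. There, 21 of the 23 were lower in both libraries, 10 of them at least 2-fold, so most of these decreases were shared by that class. Cxcl13 stood at 315 and 379 CPM against 1072 and 1029 CPM, Vsig4 at 104 and 94.1 CPM against 221 and 205 CPM, and Apoc1, an apolipoprotein, at 36.3 and 30.5 CPM against 95.7 and 70.2 CPM. With Tgfb2, which the selection used, Cxcl13, Vsig4 and Apoc1 were the 4 of 26 resident identity genes past 2-fold, and 22 of 26 were lower in both libraries, with medians of -0.66 and -0.45. In mitotic Gata6-low macrophages over their own class, the medians of this list were -0.07 and -0.07. In cells with 4 or more LPM UMIs the medians were -0.23 and -0.19. Here and below, such cells were set against all LPM with 0 mitosis UMIs, which needed only 2 LPM UMIs. A stricter limit on 1 side raises resident genes on that side. These medians therefore do not show how much of the gap went with the cells near the LPM threshold. Cxcl13 kept log2 ratios of -1.20 and -1.03 in these cells, whereas Vsig4 moved to -0.48 and -0.73. Gata6 stood at 97.9 and 95.9 CPM against 113 and 119 CPM.

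Depth also moved with this result, and its part in it was not tested beyond the following values. LPM with 0 mitosis UMIs of the same depth as the mitotic LPM held 728 and 918 CPM of Cxcl13, 159 and 166 CPM of Vsig4 and 90.6 and 96.6 CPM of Gata6, and against them 15 genes were at least 2-fold lower. Per cell, Cxcl13 gave 4.33 and 5.96 UMIs in mitotic LPM against 8.51 and 8.74, whereas Timd4, a phosphatidylserine receptor, gave 4.18 and 4.68 UMIs against 3.55 and 3.03. Cxcl13 was thus lower on both scales, and Timd4 only as a share of the cell's transcripts, at 304 and 298 CPM against 448 and 357 CPM. Adgre1, the F4/80 antigen, gave 5.15 and 5.88 UMIs per cell against 5.15 and 5.54.

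Complement genes were lower together as a share of the cell's transcripts. All 12 compared complement components and receptors were lower in both libraries, 3 of them at least 2-fold, with medians of -0.62 and -0.45. C4b stood at 486 and 541 CPM against 1021 and 1106 CPM, with log2 ratios of -0.59 and -0.69 in cells with 4 or more LPM UMIs. In mitotic Gata6-low macrophages the medians against their own class with 0 mitosis UMIs were -0.54 and -0.44. Apoe, the lipid carrier, stood at 1723 and 1047 CPM against 3469 and 2181 CPM. In LPM with 0 mitosis UMIs of the same depth it stood at 3006 and 1750 CPM. Trf, transferrin, stood at 295 and 289 CPM against 618 and 632 CPM, and Igf1, a growth factor, at 21.8 and 16.9 CPM against 53.2 and 40.9 CPM, with -0.89 and -0.94 at 4 or more LPM UMIs. Per cell the gaps were smaller, with C4b at 6.68 and 8.52 UMIs against 8.10 and 9.39. Apoe gave 23.7 and 16.5 UMIs per cell against 27.5 and 18.5, and Trf 4.06 and 4.54 against 4.91 and 5.37. Outside secreted products, Slfn5, a Schlafen family member, was lowest, at 5.39 and 3.57 CPM against 27.4 and 26.8 CPM, and Kdm5b, a histone H3 demethylase, stood at 6.43 and 6.24 CPM against 22 and 23.1 CPM. All 6 MHC class II genes were lower as well, with medians of -0.43 and -0.57, and of -0.77 and -1.27 in cells with 4 or more LPM UMIs, and so were 9 of 11 interferon response genes. Nuclear genes of oxidative phosphorylation ran the other way by a small step, with 35 of 39 higher in both libraries, none past 2-fold, and medians of 0.20 and 0.27.

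The LPM genes of the selection set mitotic LPM apart from mitotic Gata6-low macrophages, so this comparison is a description. Of 5242 genes, 58 (1.11%) were at least 2-fold higher and 7 (0.134%) at least 2-fold lower in mitotic LPM in both libraries. Among genes that the selection did not use, Vsig4 stood at 104 and 94.1 CPM against 4.31 and 3.38 CPM, and C4b at 486 and 541 CPM against 126 and 108 CPM. Fabp4, a fatty acid binding protein, stood at 365 and 576 CPM against 44.5 and 40.0 CPM, and Selp, P-selectin, at 117 and 161 CPM against 27.7 and 28.2 CPM. The 7 lower genes, named after their values were seen, were Gpr141, Cbr2, Mrc1, Gm34084, Pstpip1, Slamf9 and F13a1, and Mrc1, the mannose receptor, stood at 17.2 and 15.2 CPM against 38.6 and 58.1 CPM. Cell division genes were close, with Ccnb1 at 78.6 and 95.6 CPM against 77.5 and 72.8 CPM and Kif11 at 68.2 and 59.3 CPM against 58.7 and 62.7 CPM.

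Between the genotypes, most genes of mitotic LPM stood close. Of 4942 genes compared, 4 (0.0809%) were at least 2-fold higher and 7 (0.142%) at least 2-fold lower in Cd36-/- cells, the median log2 ratio was -0.02, and 98.6% lay within 1.5-fold. By any amount, 45% were higher and 55.0% lower. The targeted gene Cd36 (chr5:17781690-17888801, minus strand, GENCODE M21 on mm10) stood at 152 CPM in Cd36-/- and 209.5 CPM in fl/fl mitotic LPM, a log2 ratio of -0.47 (-0.61 to -0.33). A Cd36 UMI was seen in 79.8% and 88.8% of mitotic LPM, and in 38.9% and 47.0% after thinning to 3000 UMIs, against 6.58% and 8.67% of B cells. These are 3′ tags, and whether they cover the deleted part of Cd36 is not given in the sources used here, so Cd36 checks the label only in its direction. Lyz2 (chr10:117277331-117282321, minus strand), which carries Cre, stood at 13510 and 22547 CPM, a log2 ratio of -0.74 (-0.75 to -0.72).

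Of the 7 lower genes, 4 are known targets of the glucocorticoid receptor. Per1, a period gene of the circadian clock, stood at 4.35 CPM in Cd36-/- and 21.6 CPM in fl/fl mitotic LPM, with a UMI in 5.70% and 27.7% of cells. Klf9, a zinc finger repressor, stood at 40.8 and 82.5 CPM, and Fkbp5, a co-chaperone of the receptor, at 14.7 and 30.1 CPM. Lepr, the leptin receptor, stood at 15.6 and 34.8 CPM. In the glucocorticoid list all 7 genes compared were lower, with a median log2 ratio of -1.01 in mitotic LPM, -0.84 in LPM with 0 mitosis UMIs and -1.08 in mitotic Gata6-low macrophages, so it lay on the same side in all 3 classes. These classes come from the same 2 libraries.

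The other lower genes were Timp1, Gm10036 and AY036118. Timp1, an inhibitor of matrix proteases, stood at 6.43 and 21.8 CPM, a log2 ratio of -1.76 (-2.40 to -1.17), against -0.28 (-0.49 to -0.08) in LPM with 0 mitosis UMIs. Few cells carried it, with a UMI in 24 Cd36-/- and 32 fl/fl cells, and 10 fl/fl cells held 70.4% of the fl/fl UMIs. Gm10036 and AY036118 share 75.3% and 100% of the words of their 3′ ends with other genes, so their reads are uncertain. Among the 4 higher genes, Gstp1 (131 and 61.3 CPM) and Tpm3-rs7 (150 and 50.6 CPM) share 42.2% and 61.9% of those words. Lyz1, a lysozyme gene next to Lyz2, was the highest, at 1959 and 406 CPM, and shares 37.0%, all with Lyz2.

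Several late cell cycle genes stood lower and some S phase genes higher in Cd36-/- cells. The spindle gene Kif11 was slightly higher, with a log2 ratio between 0.048 and 0.25 over the settings used. Ccnb2, Cdc20 and Rrm2 are among the genes that made the stage split, so they describe the same difference again. Ccnb2 stood at 160 and 213 CPM, a log2 ratio of -0.41 (-0.55 to -0.27), Cdc20 at 72.4 and 94.1 CPM with -0.38 (-0.59 to -0.17), and Hmmr at 61.8 and 81.4 CPM with -0.40 (-0.62 to -0.17). Rrm2 was higher, at 108 and 80.5 CPM with 0.42 (0.23 to 0.62), as was Hist1h2ap, at 3301 and 1949 CPM with 0.76 (0.72 to 0.80). Within stages, the ratio of Hist1h2ap, which did not make the split, was 0.59 (0.55 to 0.64) among S-rich and 0.47 (0.37 to 0.57) among late-rich cells. At 5000 UMIs per cell, at least 10 Hist1h2ap UMIs were seen in 55.0% of Cd36-/- and 39.8% of fl/fl cells. Over lists, the median log2 ratio was -0.15 for mitotic cyclins and kinases (6 of 11 lower) and -0.13 for spindle and motors (13 of 17 lower). It was -0.07 for cytokinesis, -0.06 for the anaphase promoting complex and securin, and -0.03 for checkpoint and kinetochore. For the passenger complex and for condensin and cohesin it was 0.01, near the -0.02 over all genes. Replication stood at 0.09 and clustered histones at 0.26, and no gene of these lists passed 2-fold.

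Resident and lipid genes varied one by one. Gata6 stood at 97.9 and 95.9 CPM, a log2 ratio of 0.03 (-0.16 to 0.22), and the 26 resident identity genes had a median of -0.12, with 18 lower and 8 higher. Their median was -0.06 in cells with 4 or more LPM UMIs. Apoe stood at 1723 and 1047 CPM, with 0.72 (0.67 to 0.77), at 0.56 in cells with 4 or more LPM UMIs and at 0.67 in LPM with 0 mitosis UMIs. Fabp4 stood at 365 and 576 CPM, a log2 ratio of -0.66 (-0.75 to -0.57), against -0.30 (-0.33 to -0.27) in LPM with 0 mitosis UMIs. Its UMI was seen in 69.5% of Cd36-/- and 83.5% of fl/fl mitotic LPM. All 6 MHC class II genes were higher in Cd36-/- mitotic LPM, with a median of 0.34 and every counting interval above 0. Cd74, the invariant chain, stood at 1502 and 1108 CPM, and H2-Ab1 at 580 and 438 CPM. In cells with 4 or more LPM UMIs the median was 0.70 and the log2 ratio of Cd74 was 0.81, against 0.44 (0.39 to 0.49) in all mitotic LPM. In Cd36-/- and fl/fl, 10 cells held 27.3% and 37.1% of the Cd74 UMIs and 26% and 34.1% of those of H2-Ab1, with a median of 7 and 6 UMIs of Cd74 per cell.

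A few genes of inflammation and uptake stood on opposite sides in mitotic LPM and in other macrophages. Marco, a scavenger receptor for particles, stood at 444 CPM in Cd36-/- and 577 CPM in fl/fl mitotic LPM, a log2 ratio of -0.38 (-0.46 to -0.29), but at 699 and 466 CPM in LPM with 0 mitosis UMIs, a ratio of 0.59 (0.55 to 0.62). Serpinb2, an inhibitor of plasminogen activators, stood at 470 and 610 CPM with -0.37 (-0.46 to -0.29), against 0.34 (0.29 to 0.38) in LPM with 0 mitosis UMIs. Cxcl2, a neutrophil attracting chemokine, stood at 46.9 and 72.9 CPM with -0.64 (-0.89 to -0.39), against 0.41 (0.30 to 0.52). Of the fl/fl UMIs of Cxcl2, 66.1% lay in 10 of 285 cells and 18% in 1 cell. Where the LPM and mitosis terms were applied after thinning to 3000 UMIs, the ratio in mitotic LPM was 0.054 for Cxcl2, -0.095 for Marco and -0.25 for Serpinb2, so Cxcl2 was then no longer lower and Marco lay close to 0. Lcn2, a siderophore-binding protein, stood at 69.5 and 131 CPM, a ratio of -0.92 (-1.12 to -0.72) and of -0.58 with these terms after thinning, with a UMI in 21.9% and 33.0% of cells. The top 10 cells held 47.5% and 45.7% of its UMIs. The shares of cells near the LPM threshold and of S-rich cells also differed between the libraries, and their part in these values was not tested.

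**Figure D5:**
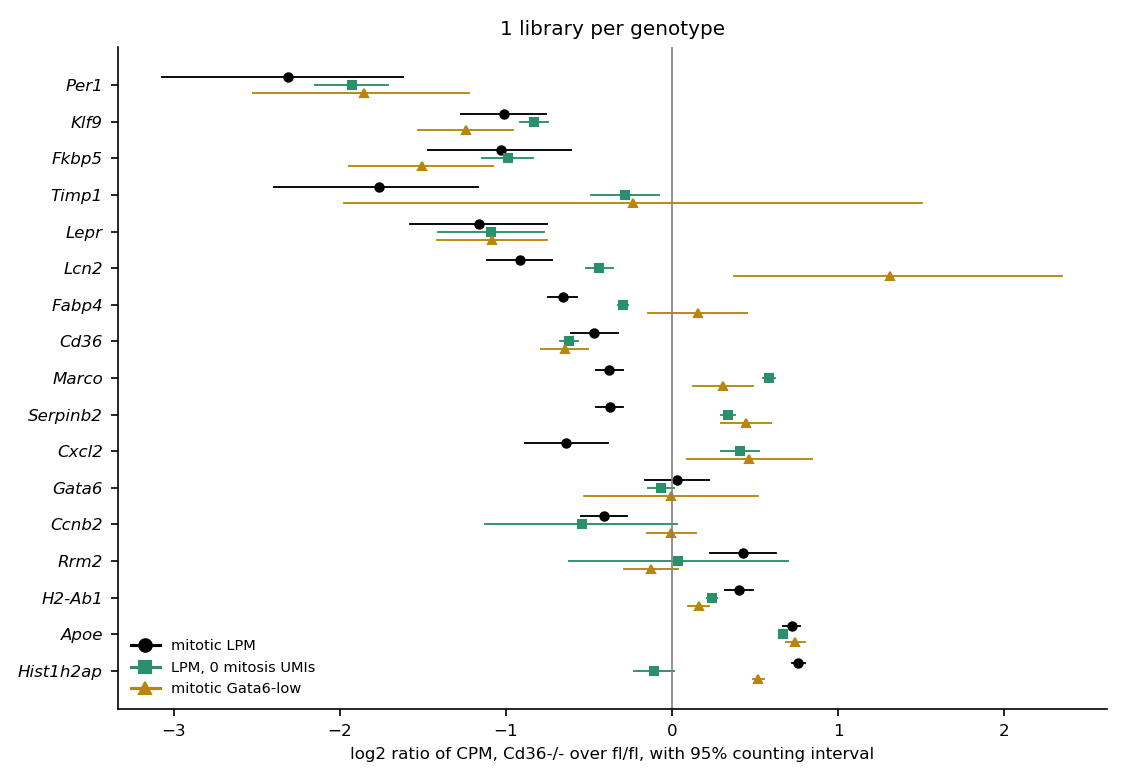
Log2 ratio of CPM between the Cd36-/- and the fl/fl library (x axis, with 95% counting intervals) for 17 genes in mitotic LPM (circles), LPM with 0 mitosis UMIs (squares) and mitotic Gata6-low macrophages (triangles). Per1, Klf9, Fkbp5 and Lepr lay left of 0 and Apoe right of 0 in all 3 classes, while Marco, Serpinb2 and Cxcl2 lay left of 0 only in mitotic LPM among these 3 classes, with Cxcl2 at 0.054 where the UMI terms followed thinning.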

How the data were processed

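Per the labels' protocols, 1 library of each genotype was prepared by 10x chemistry (3′, v2). The authors deposited its raw counts of UMIs, by gene and barcode, written by software of version 3.0.0 according to the matrix headers. Cell Ranger and mm10 are named in the submitters' processing notes. The annotation release is not given in the sources used here. Of 31053 gene IDs in the files, 31011 were found in GENCODE M21, used for positions and 3′ ends. The libraries held 16543 (Cd36-/-) and 15537 (fl/fl) barcodes with 116600732 and 117238057 UMIs. Barcodes with under 200 genes or over 10% mitochondrial UMIs were left out.

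Counts were summed per class and library and scaled to CPM. The CPM, ratios and shares have exact Poisson, conditional binomial and Clopper-Pearson intervals at 95% (scipy 1.17.1), and intervals of differences were combined from these. UMIs are molecules, and intervals cover counting error only. Genes with at least 20 CPM in 1 of the groups compared were used, and 36 repeated symbols were left out. Doublets were called per library by Scrublet in scanpy 1.11.5. Cells were thinned by drawing UMIs without replacement, to 3000 for classes and 5000 for stages. Ratio steps were tested on simulated data.

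The cells, the gene lists and the comparisons were chosen with earlier results of these data known. Genes named are those of the selection, Cd36, Lyz2 and Lyz1, the 15 highest and 15 lowest of each comparison by the interval bound nearest to 0, and up to 6 per list. Mitochondrial, ribosomal protein, immunoglobulin, T cell receptor, haemoglobin and sex-linked genes and gene models were left out of that ranking. Cenpa, Slbp, Tk1 and Pttg1 by stage, genes that differed from mitotic Gata6-low macrophages, and Gm10036 and AY036118 were named after their values were seen, and Alox15, Folr2 and other markers come from marker lists. Alternatives were other filters, thresholds, scalings and comparison cells. Promoters come from RefSeq on GRCm38.p6. A few genes of these lists and counts are not reported here by name.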

Additional observations from a re-analysis of the deposited data

Results flagged for a closer look

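In 5 of 227 named genes, the Cd36-/- and fl/fl libraries stood on opposite sides in mitotic LPM and in another macrophage class, with every counting interval clear of 0 and a gap of at least 1.5-fold. With 1 library per genotype, none of these differences was tested beyond counting error. Against LPM with 0 mitosis UMIs, the log2 ratio of mitotic LPM was lower by a difference of -0.96 (-1.05 to -0.87) for Marco, -0.71 (-0.80 to -0.62) for Serpinb2 and -1.05 (-1.32 to -0.77) for Cxcl2. Against mitotic Gata6-low macrophages the difference was -0.68 for Marco, -0.82 for Serpinb2, -1.10 for Cxcl2, -1.12 for Cxcl13 and -2.23 (-3.28 to -1.27) for Lcn2. Lcn2 stood at only 7.79 and 3.13 CPM in mitotic Gata6-low macrophages. A further 18 such pairs of a gene and a class differed by less than 1.5-fold. With the UMI terms of the selection applied after thinning, the ratio in mitotic LPM was -0.095 for Marco, -0.25 for Serpinb2, 0.054 for Cxcl2, 0.065 for Cxcl13 and -0.58 for Lcn2, so Cxcl2 and Cxcl13 were then on the side of the other classes.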

How the results depend on the processing

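Shares, list medians and gene counts were recomputed under other filters, thresholds, scalings and comparison cells, of which 2 for the comparison with LPM with 0 mitosis UMIs, and the stage shares with their 4 alternatives, were chosen after seeing the data. The difference in the share of dividing LPM kept its sign under all 8 alternatives, from -0.809 to -1.85 points. The genes at least 2-fold higher in Cd36-/- cells numbered 11 with a minimum of 10 CPM. The lower ones numbered 21 with 10 CPM, 2 with 50 CPM and 13 when mitochondrial and ribosomal protein genes were left out of the total. Genes at least 2-fold lower than in LPM with 0 mitosis UMIs numbered 15 against LPM with under 5 mitosis UMIs and 15 against depth-matched LPM. Of 781 genotype ratios of named genes under alternatives, 37 changed sign, of which 3 had a main counting interval clear of 0, all with the UMI terms applied after thinning (Cxcl2 0.054, Cxcl13 0.065, C4b 0.0053). Of 938 ratios to LPM with 0 mitosis UMIs, 275 moved outside their main counting interval. Against depth-matched LPM alone, 84 of 134 gene ratios did so and 4 more reversed. There, 35 of 56 list medians were classed as moved, by a fixed limit on the log2 scale. Of the 938 ratios, 13 changed sign, 5 of them with a main counting interval clear of 0. Against depth-matched LPM they were 0.11 for Gata6, 0.60 for Fkbp5 and -0.38 for Gstp1 in Cd36-/- and 0.048 for Ltbp1 in fl/fl cells, and Gstp1 in Cd36-/- was -0.086 where LPM genes were required at 2 per 10000 UMIs. The cause was not tested. Of 700 list medians under alternatives, 37 changed sign, from main values of at most 0.28 in size. That of inflammatory genes between the genotypes went from -0.28 to 0.061 with the UMI terms applied after thinning. No paired analysis was possible because each genotype has 1 library. Depth limits genes at a few CPM, such as Timp1, whose genotype ratio lay between -2.03 and -1.38.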
